A study of Mus musculus with 3 samples.

Results

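The insulin signalling genes were 10 of the 22367 protein-coding genes annotated in GENCODE M1, and they were chosen by name: Insr, Irs1, Irs2, Pik3r1, Akt1, Akt2, Foxo1, Foxo3, Igfbp1 and Trib1. No binding value was used to choose them, although the list was drawn up with results of these data already known. The series holds 3 ChIP-seq libraries from the liver of wild type male C57BL/6 mice aged 3 months. They are 1 with an antibody to RXRα, 1 with an antibody to RARα, and 1 of input chromatin, which went through no antibody. The label of the input names it as that of RXRα, and no input labelled for RARα is among the 3. All 3 libraries come from the same tissue, with no treatment named in the labels, so the comparisons are of RXRα with input, of RARα with RXRα, and of these genes with all genes. There were no replicates, and neither the number of animals per library nor pooling is given in the labels. The RXRα and input signals amounted to 9999939 and 9999292 reads. The paper reports more uniquely mapped RXRα reads than this, so the RXRα total is of the deposited signal and not the sequenced depth. No p-value is given because nothing measures the spread between animals.

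Insulin binds the receptor Insr on the cell surface, and the activated receptor phosphorylates the adaptors Irs1 and Irs2. These recruit the phosphoinositide 3-kinase, of which Pik3r1 is a regulatory subunit, and the lipid it makes leads to activation of the kinases Akt1 and Akt2. In the liver, Akt phosphorylates the forkhead factors Foxo1 and Foxo3 and moves them out of the nucleus, which lowers transcription of FOXO targets such as the secreted protein Igfbp1. Trib1 is a pseudokinase with a known role in hepatic lipid metabolism. RXRα and RARα are nuclear receptors that can pair on DNA at direct repeats of a short half-site, and RXRα pairs with many other receptors too.

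Sequences under enriched sites of 8 of the 10 genes are shown first, because receptor half-sites and their absence recur throughout. For Irs2, Pik3r1, Akt1, Akt2, Foxo1 and Foxo3 the RXRα sequence lies at the gene's strongest region, for Irs1 at the strongest within 10 kb, and for Insr at the only region with a direct repeat. The strongest regions of Insr, Irs1 over its whole body, and Igfbp1 are described without sequence. Each is read from the plus strand of NCBI37/mm9, 5′ to 3′. It is centred on the bin of highest RXRα signal, on the summit of the RARα peak, or on the direct repeat. Capitals mark a receptor half-site, which reads AGGTCA with A or G allowed at the first base and G or T at the third. They also mark a forkhead core (GTAAACA) and an insulin response core (CAAAACA). All were searched on both strands.
Insr intron, RXRα region with a direct repeat (chr8:3227604-3227719): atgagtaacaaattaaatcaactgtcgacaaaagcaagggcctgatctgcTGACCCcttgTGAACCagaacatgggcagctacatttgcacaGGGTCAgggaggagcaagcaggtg
Irs1 promoter, RXRα region (chr1:82288117-82288237): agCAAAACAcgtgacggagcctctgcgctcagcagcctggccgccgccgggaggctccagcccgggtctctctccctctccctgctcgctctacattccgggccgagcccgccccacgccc
Irs2 upstream, RARα peak (chr8:11008850-11008970): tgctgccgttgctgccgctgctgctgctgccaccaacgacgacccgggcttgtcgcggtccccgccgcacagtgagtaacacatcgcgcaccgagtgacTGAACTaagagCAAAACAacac
Irs2 upstream, RXRα region (chr8:11009813-11009933): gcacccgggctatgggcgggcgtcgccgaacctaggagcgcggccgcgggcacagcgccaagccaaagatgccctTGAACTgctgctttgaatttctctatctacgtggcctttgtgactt
Pik3r1 intron, RXRα region (chr13:102468117-102468237): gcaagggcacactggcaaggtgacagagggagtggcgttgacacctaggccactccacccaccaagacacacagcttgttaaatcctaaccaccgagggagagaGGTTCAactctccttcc
Akt1 intron, RXRα region (chr12:113909301-113909421): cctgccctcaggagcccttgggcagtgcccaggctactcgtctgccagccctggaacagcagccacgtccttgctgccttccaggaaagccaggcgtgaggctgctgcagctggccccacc
Akt2 intron, RXRα region (chr7:28378389-28378509): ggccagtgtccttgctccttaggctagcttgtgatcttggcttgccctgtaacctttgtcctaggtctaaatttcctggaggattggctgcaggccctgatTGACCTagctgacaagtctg
Foxo1 intron, RXRα region (chr3:52073973-52074093): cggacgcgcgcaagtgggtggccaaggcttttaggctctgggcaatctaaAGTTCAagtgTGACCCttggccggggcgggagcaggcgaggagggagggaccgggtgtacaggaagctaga
Foxo3 intron, RXRα region (chr10:41990581-41990701): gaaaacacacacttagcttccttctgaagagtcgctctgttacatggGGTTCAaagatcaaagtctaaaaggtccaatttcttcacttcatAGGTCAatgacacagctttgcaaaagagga

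The 250 bases before the gene start are shown for Igfbp1, where FOXO factors are known to act through an insulin response element, and for Akt1, the only one of the 10 genes with a direct repeat there.
Igfbp1 promoter (chr11:7097535-7097784): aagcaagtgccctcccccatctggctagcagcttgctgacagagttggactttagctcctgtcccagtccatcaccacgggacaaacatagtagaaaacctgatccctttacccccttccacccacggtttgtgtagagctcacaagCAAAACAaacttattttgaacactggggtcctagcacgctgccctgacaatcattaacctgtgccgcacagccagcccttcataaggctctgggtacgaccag
Akt1 promoter (chr12:113913096-113913345): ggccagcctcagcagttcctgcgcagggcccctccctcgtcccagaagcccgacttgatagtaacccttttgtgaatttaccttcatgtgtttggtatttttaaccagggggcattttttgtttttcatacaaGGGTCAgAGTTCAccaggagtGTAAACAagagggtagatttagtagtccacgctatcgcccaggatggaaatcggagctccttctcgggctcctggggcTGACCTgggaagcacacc

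Nearly all of the insulin signalling genes carried both receptors near their start. RARα had a peak with a score over 20 within 10 kb of the start in 9 of 10 genes, with 31 peaks in all, against 52.2% of all protein-coding genes. RXRα was at least 20-fold over input within 10 kb in 10 of 10 genes, with 39 regions, against 39.8% of all genes. The score is the strength the authors' peak caller gave each peak, and an RXRα region is a run of bins at or above that fold. A RARα peak overlapped an RXRα region, here called co-localized, in 9 of 10 genes against 23.5% of all genes. The gene without a RARα peak was Akt1, whose highest score of 20 fell exactly at the threshold and did not pass.

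**Figure D1:**
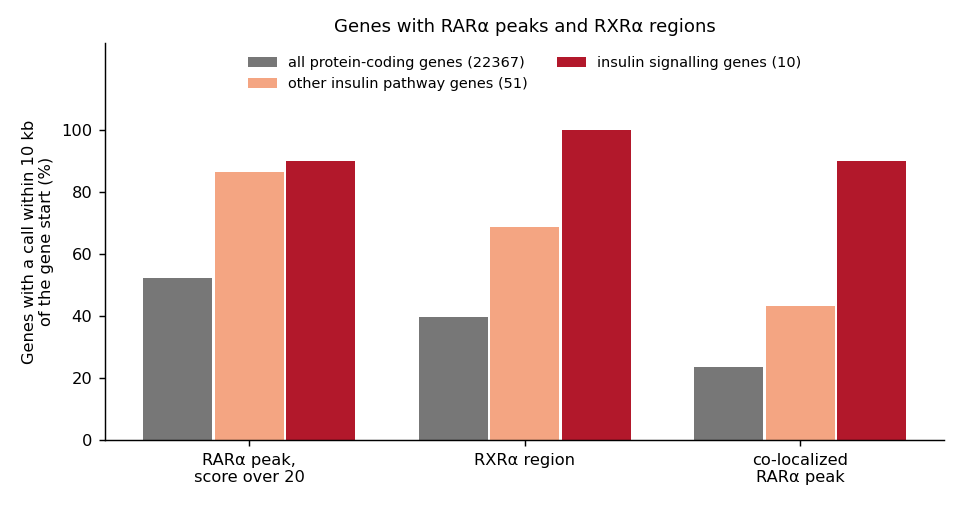
The bars give the percentage of genes (vertical axis) with a RARα peak of score over 20, an RXRα region or a co-localized RARα peak within 10 kb of the gene start, for all protein-coding genes (grey), 51 other insulin pathway genes (orange) and the 10 insulin signalling genes (red). The red bars stand at 90, 100 and 90%, and the grey bars at 52.2, 39.8 and 23.5%.

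Closer to the start, RXRα regions were in fewer of the genes than RARα peaks. Within 1 kb, 9 genes had a RARα peak, against 40.9% of all genes, and 7 had an RXRα region, against 21.6%. Akt1, Akt2 and Foxo1 had no RXRα region within 1 kb, where their highest bins reached 19.0, 13.3 and 19.0 times input. Over the gene body, 8 genes had a RARα peak (42.5% of all genes), 8 had an RXRα region (33.9%) and 8 had a co-localized peak (17.7%). Body counts grow with gene length, and the median body was 53.8 kb for these genes against 15.4 kb for all genes. Per 10 kb of body, the 10 genes pooled had 1.31 RXRα regions and 0.684 RARα peaks, against 0.231 and 0.199 over all genes. The pooled counts were thus also higher per unit of length, but single genes differed. RXRα ran from 0 at Irs2 and Igfbp1 to 4.88 at Trib1, with 0.475 at Akt1, 0.406 at Akt2 and 0.367 at Foxo1. Regions were placed by their midpoint, so an Igfbp1 region with its midpoint at −57 bp counted as upstream although it reached into the body. A RARα peak in the Igfbp1 body co-localized with that region. The highest RXRα bin of the Igfbp1 body was 63.1 times input, at 56 bp, against 13.3 for the body of Irs2. RARα ran from 0 at Irs2 and Akt1 to 4.2 at Igfbp1. The 51 other pathway genes pooled had 0.389 of each.

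The RXRα to input read ratio within 10 kb of the start needs no threshold, and it ranged from 1.72 at Foxo1 to 5.71 at Foxo3 with a median of 3.58, against a median of 1.09 over all genes. All 10 genes had the lower end of the exact 95% interval above the median of all genes. Foxo3 (interval 4.81 to 6.80), Igfbp1 (5.43, 4.42 to 6.71), Pik3r1 (4.48, 3.71 to 5.47) and Irs2 (4.33, 3.55 to 5.34) were the highest, and their intervals overlapped. Trib1 (3.67, 3.10 to 4.33), Akt1 (3.50, 2.78 to 4.44), Akt2 (3.49, 2.79 to 4.38), Irs1 (2.86, 2.31 to 3.56) and Insr (2.48, 1.99 to 3.09) followed without a gap between neighbours. Foxo1 (1.39 to 2.12) overlapped only with Insr. These intervals cover counting error only, and reads may include copies of one fragment.

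Within 1 kb the ratios were higher, with a median of 8.20 against 1.79 over all genes, and the order changed. Irs1 had the highest ratio, 37.5, but it rests on 2.6 input reads and its interval runs from 10.9 to 161. Igfbp1 (9.64), Irs2 (9.22), Foxo3 (8.98), Pik3r1 (8.92) and Trib1 (7.47) lay close together. Akt1 and Akt2 both had 4.8, Foxo1 had 3.77 and Insr had 3.17, the only gene whose interval (1.77 to 6.47) reached the median of all genes. Input itself was not low around these genes: within 10 kb it held 96.0 to 182 reads, where the mean of the genome gives 75.3, and all 10 genes were above that mean. Within 1 kb, 8 of 10 were above the mean of 7.54 reads, Irs1 and Irs2 being the exceptions.

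**Figure D2:**
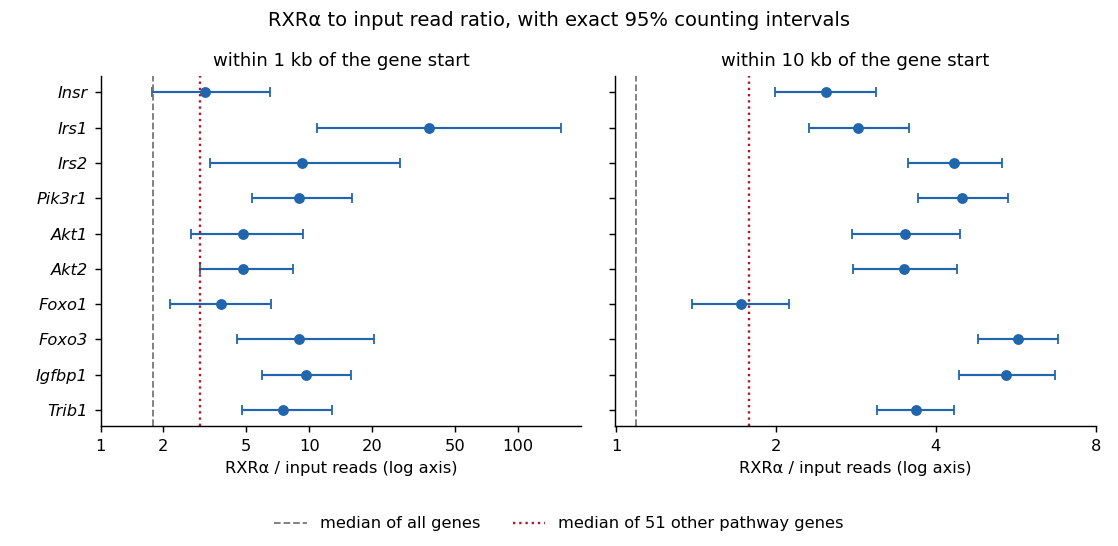
Points give the RXRα to input read ratio (horizontal log axes) of each gene within 1 kb (left) and within 10 kb (right) of the gene start, and bars give exact 95% counting intervals of 1 library. The dashed line is the median of all genes (1.79 and 1.09) and the dotted line that of 51 other pathway genes (3.00 and 1.78). The wide bar of Irs1 on the left reflects 2.6 input reads.

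Insr, the receptor (chromosome 8, 3150922 to 3279617, minus strand), had its strongest RARα peak right at the start, with a score of 70 and the summit 2 bp downstream in the 5′ UTR. This peak overlapped an RXRα region with 14 reads over a bin without input, a ratio of 23.2. The highest RXRα region within 10 kb lay at 1.10 kb in the intron, with a ratio of 44.8, and the RARα score there was 11. Insr carried 19 RXRα regions over its 129 kb body, more than any other of the 10 genes, spread from 1.10 to 70.2 kb. The strongest of them (73.0) was at 68.0 kb in a coding exon. RARα was weaker over the body, where 4 further peaks scored 25 or 26 and 3 of them co-localized with RXRα. At the start of a shorter transcript, 86.9 kb downstream, the read ratio was 0.733 (0.138 to 2.81).

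The adaptor Irs1 (chromosome 1, 82229676 to 82287991, minus strand) had both receptors at the same place. Its strongest RARα peak (score 85, −254 bp) and its strongest RXRα region within 10 kb (ratio 49.8, centred at −233 bp) lay 21 bp apart, and the peak held 55.6 RXRα reads against 0.2 input reads. A further RARα peak at −2.88 kb scored 65 without RXRα enrichment: 8.0 RXRα reads stood against 13.2 input reads, a ratio of 0.606. At 6.82 and 8.06 kb in the intron, RARα peaks of 37 and 52 co-localized with RXRα regions of 21.6 and 24.9. The highest RXRα region of the body (71.4) was at 53.0 kb, towards the 3′ end, where the nearest annotated start is that of Gm9747 on the opposite strand.

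Irs2, the other adaptor (chromosome 8, 10986980 to 11008458, minus strand), had the highest RARα score of the 10 genes, 184 at −452 bp, which placed it at the 99.4th percentile of all genes by strongest score. RXRα over that peak was 29.8 reads against 1.6 for input, with a region of 33.2. The strongest RXRα region was a different one, at −1.30 kb, with 77 reads over 1 input read and RARα scores of 18, 19 and 9 across it. All 6 RXRα regions of Irs2 lay upstream, between −4.85 and −0.422 kb. The body was empty by comparison, with 0 RXRα regions, 0 RARα peaks over 20 and a read ratio of 1.24 (0.969 to 1.59).

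Pik3r1 (chromosome 13, 102450716 to 102538172, minus strand) had a RARα peak of 123 at 67 bp and another of 34 at −463 bp, both co-localized with RXRα regions (41.5 and 79.6). The most enriched RXRα region of all 10 genes was far from this start, at 70.0 kb in an intron, with 158 RXRα reads over a bin without input, a ratio of 262. A RARα peak with a score of 28 lay over it, and across that peak RXRα held 230 reads against 8.6 for input. Pik3r1 has shorter transcripts that begin downstream of this region. The region lies −3.85 kb from the start of one at 73.8 kb and −5.59 kb from that of another at 75.6 kb. The read ratio within 1 kb of these starts was 3.88 (2.48 to 6.55) and 1.19 (0.512 to 2.63). Gm11016, on the opposite strand inside Pik3r1, has the nearest annotated gene start, so a nearest-gene rule gives the region to Gm11016. Pik3r1 had 16 RXRα regions and 9 RARα peaks over its body, and the highest RARα score beyond 10 kb, 52 at 72.2 kb, had an RXRα enrichment of 1.5.

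Akt1 (chromosome 12, 113892032 to 113913095, minus strand) had high RXRα without a RARα peak over 20. An RXRα region of 131 at 3.70 kb in an intron, with 79 reads over a bin without input, was lower within 10 kb only than that of Foxo3, and the RARα peak on it scored 20, exactly at the threshold. RXRα over that peak was enriched 81.8-fold. The region lies 0.383 kb downstream of the start of a shorter transcript, Akt1-006, where the read ratio within 1 kb was 13.3 (6.90 to 28.0) against 4.8 (2.71 to 9.35) at the main start. Its other RXRα region, 38.2 at −3.94 kb, is nearer to the start of Zbtb42. The kinase Akt2 (chromosome 7, 28376571 to 28425845, plus strand) had 3 RARα peaks over 20 within 10 kb, of low score, and 1 high RXRα region. That RXRα region of 113, centred at 1.67 kb in the intron, co-localized with a RARα peak of 32, while the strongest RARα peak, 33 at 4 bp, had no RXRα region.

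The FOXO factors differed from each other. Foxo1 (chromosome 3, 52072259 to 52154031, plus strand) had high RARα scores, 126 at 111 bp and 111 at −5.73 kb, neither co-localized and with RXRα enrichments of 3.03 and 3.26. A further peak, 88 at 1.74 kb in the intron, coincided with its only RXRα region within 10 kb (48.1), where RXRα had 48.6 reads and input 0. A broad RARα peak of 36 at 22.6 kb covered a pair of RXRα regions, of 28.2 and 33.2. Foxo3 (chromosome 10, 41901647 to 41996561, minus strand) had 7 RARα peaks and 7 RXRα regions within 10 kb, and 5 of the peaks co-localized. The strongest RARα peak scored 160 at 76 bp, over an RXRα region of 33.2. The strongest RXRα region, 135 at 5.89 kb, had a RARα peak of 31. Foxo3 had the highest read ratio within 10 kb, at the 99.2th percentile of all genes, and Foxo1 the lowest of the 10, at the 73.0th.

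Igfbp1, the FOXO target (chromosome 11, 7097785 to 7102549, plus strand), had strong RXRα and moderate RARα. An RXRα region of 81.0, with 81 reads over 1 input read, covered nearly all of the promoter printed above, and the RARα peak over it scored 45 at 30 bp. A stronger RXRα region, 110 at −3.10 kb, carried a RARα peak of 23. A RARα peak of 35 at 2.47 kb in an intron had 8.0 RXRα reads against 2.6 for input and no RXRα region. By read ratio within 10 kb Igfbp1 was at the 98.8th percentile of all genes, and by its strongest RARα score at the 70.7th.

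Trib1 (chromosome 15, 59479905 to 59488105, plus strand) carried both receptors from its start to its 3′ UTR. Its RARα peaks scored 34 at −275 bp, 115 at 325 bp, 62 at 4.62 kb in the 3′ UTR and 32 at 5.70 kb, and all but the last co-localized with RXRα. The 5 RXRα regions were between 21.6 and 39.0. RXRα had 202 reads over the 3′ UTR peak, but input had 27.8, the highest of any RARα peak over 20 in these genes, so the enrichment there was 7.27. The read ratio over the body was 5.17 (4.2 to 6.46), the highest of the 10.

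**Figure D3:**
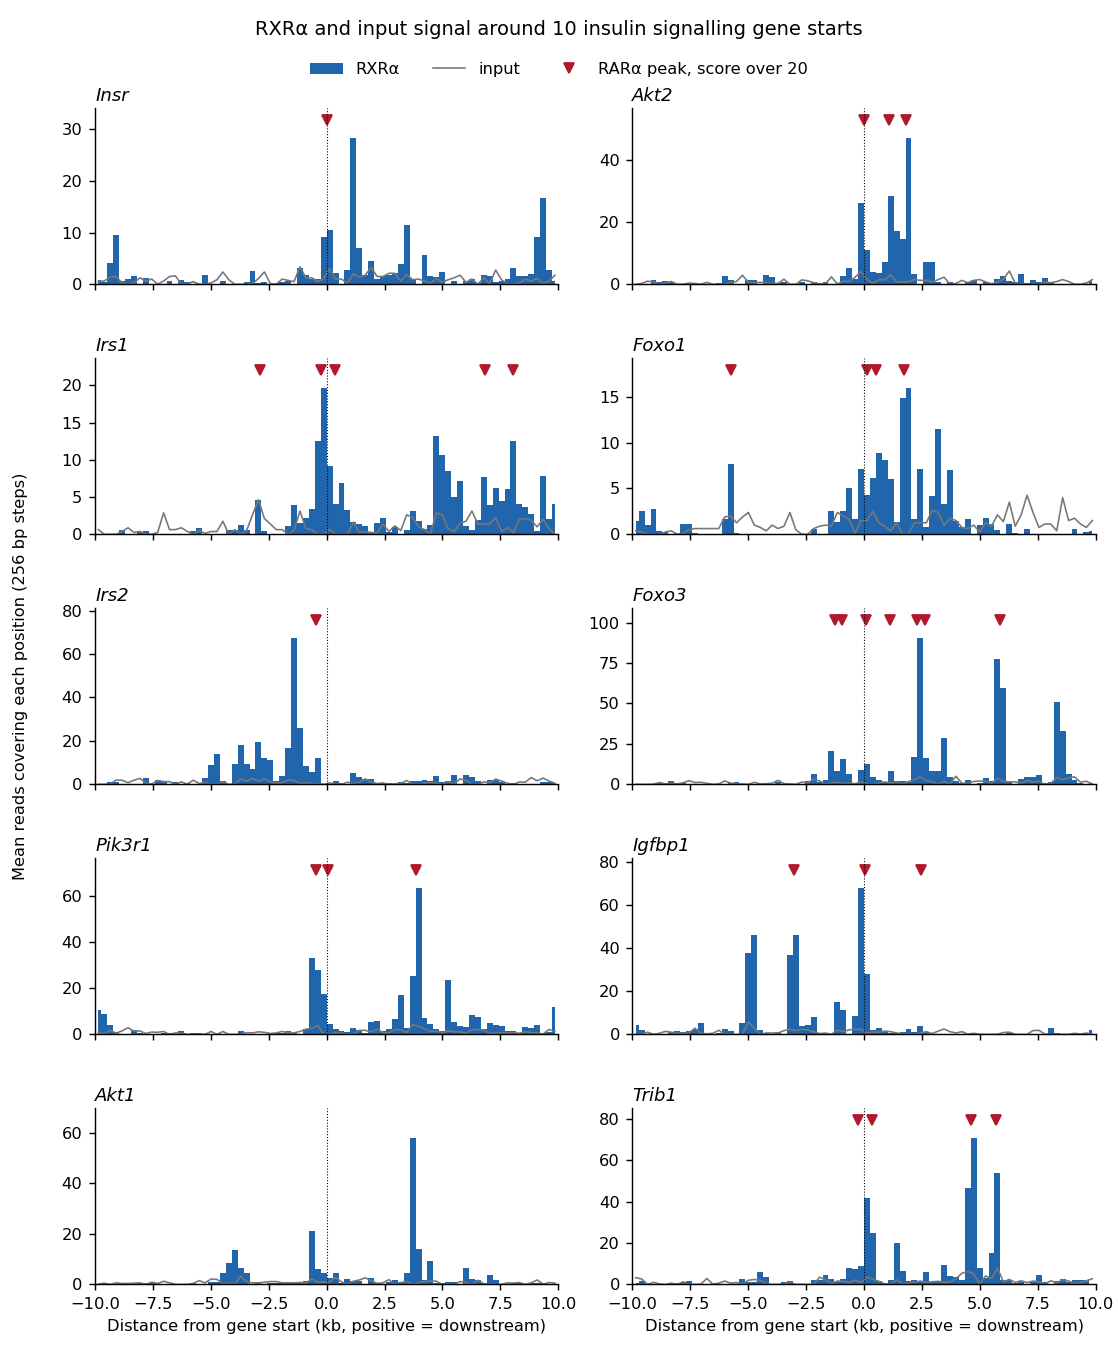
Each panel shows 1 gene, with the distance from the gene start in kb on the horizontal axis and the mean number of reads over each position on the vertical axis, whose scale differs between panels. Blue bars are RXRα, grey lines input and red triangles the summits of RARα peaks with a score over 20. Irs2 has signal on the upstream side, Akt1 has no triangle, and the highest blue bars of Foxo3, Akt1 and Akt2 stand downstream of the start.

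The strongest RARα peaks lay at the starts, and the strongest RXRα regions were placed much as in other genes. In all 9 genes with both, the strongest RARα peak within 10 kb lay within 1 kb of the start, which was so for 67.2% of the 7292 genes with both. The strongest RXRα region lay within 1 kb in 3 of the 9, against 36.5% of those genes. The strongest peak and region were at the same place in 2 of 9, Irs1 and Trib1, against 28.8%. The gap ranged from 21 bp at Irs1 to 5813 bp at Foxo3.

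The base composition of the sites followed their position. Around the summits of the 14 RARα peaks within 1 kb of a start, windows of 201 bp had a median GC content of 68.4% and 19 CpG dinucleotides, and around the 33 others 51.2% and 4. The RXRα regions had 66.9% and 17.5 within 1 kb, and 48.3% and 3 beyond it. Whether GC content has a part in the RARα scores was not tested.

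**Figure D4:**
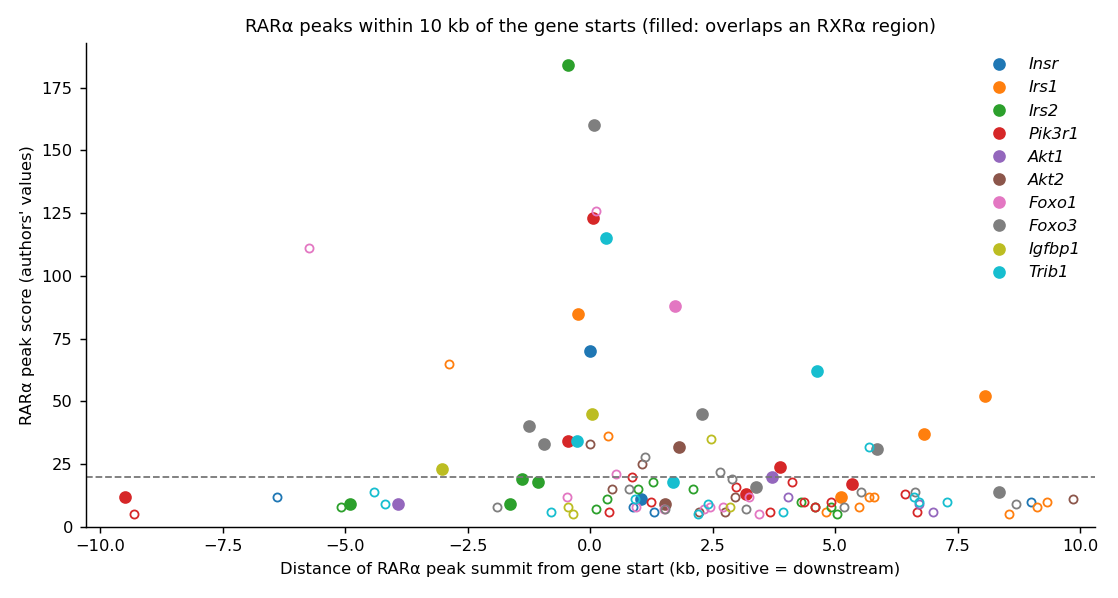
Each point is a RARα peak of any score within 10 kb of the start of 1 of the 10 genes, with the summit's distance from the start in kb (horizontal) and the authors' score (vertical). Filled points overlap an RXRα region, colours mark genes, and the dashed line is the score of 20. The highest points, from 115 at Trib1 to 184 at Irs2, stand within 1 kb of the start, and Foxo1 has an open point of 111 at −5.73 kb.

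Of the 31 RARα peaks within 10 kb, 20 co-localized with RXRα (64.5%), against 33.1% of the 18093 RARα peaks over 20 within 10 kb of any gene start. The median RXRα enrichment over the 31 peaks was 8.17 and over all those peaks 4.61. The 11 peaks that did not co-localize had a median of 5.45, so several were enriched in RXRα below the 20-fold threshold. Among the 31 peaks, 6 exceeded a score of 92, the 99th percentile of all 143280 RARα peaks, a share of 19.4% against 6.13% of the 18093 peaks over 20 within 10 kb of any start. They belonged to Irs2, Foxo3, Foxo1 with 2 peaks, Pik3r1 and Trib1.

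Including the gene bodies, the 10 genes had 47 RARα peaks over 20 and 91 RXRα regions. Insr, Irs1, Pik3r1 and Foxo3 held 70 of the 91 regions. Of all 91, 66 lay in introns. RARα peaks of any score lay on 65 regions (71.4%, against 53.7% of all 42117 regions), and peaks over 20 on 32 (35.2%, against 25.4%). Beyond 10 kb from the start there were 16 RARα peaks, with scores from 21 to 52, and 10 of them co-localized. At Foxo3, an RXRα region of 121 at 74.0 kb had a RARα score of 20, and one of 92.9 at 28.3 kb had a score of 6. In 58 of the 91 regions the highest bin had no input read, and its ratio is then set against the genome mean of 0.603.

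**Figure D5:**
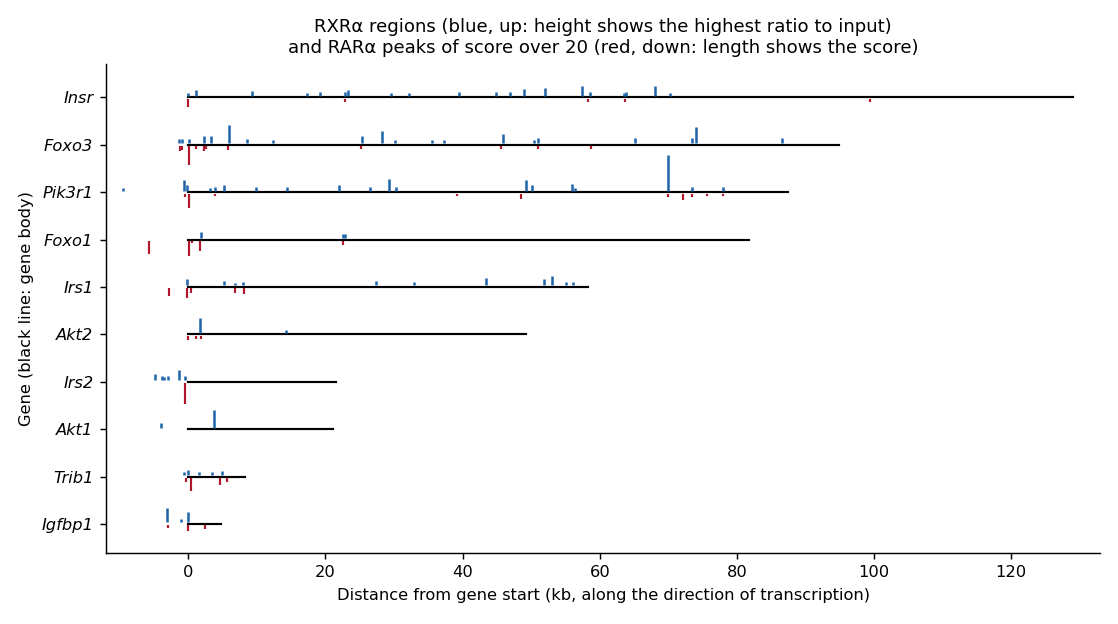
Black lines are the gene bodies, drawn to scale from the start in kb along transcription (horizontal axis), for 1 gene per row. Blue lines pointing up are RXRα regions, with height in proportion to the highest ratio to input (up to 262), and red lines pointing down are RARα peaks over 20, with length in proportion to the score (up to 184). The tallest blue line is at 70.0 kb in Pik3r1, and the longest red lines are at the starts.

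The half-sites of nuclear receptors were searched as direct repeats with 1 to 5 bases between them (DR1 to DR5), on both strands, in 201 bp around each RARα summit. None of the 47 RARα peaks held one, which allows a share of up to 6.38%, and 0.677% of all 32946 RARα peaks over 20 did. Sequences 500 bp away from all those summits held one in 0.492%. A single half-site was in 17 of the 47 windows (36.2%), and in 36.1% of all RARα peaks. With 1 mismatch allowed, 3 of 47 had a repeat (6.38%, against 8.50% of all).

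Among the 91 RXRα regions, 1 held a direct repeat (1.10%, against 2.98% of all RXRα regions). It was a DR4, GGTTCACAAGGGGTCA, on the minus strand of chr8:3227654-3227669 in an intron of Insr, 52.0 kb from the start, in a region with a ratio of 56.4 and no RARα peak. The sequence printed above shows its complement on the plus strand. With 1 mismatch, 12 of 91 regions had a repeat (13.2%, against 23.4%). The RXRα region of 262 in Pik3r1 and that of 113 in Akt2 each had a single half-site near the highest bin. That of Foxo3 had a pair of exact half-sites far apart and, with 1 mismatch, a direct repeat. The sequences printed for Akt1 had none at its region, neither an exact half-site nor a repeat with 1 mismatch.

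The forkhead core GTAAACA and the insulin response core CAAAACA were searched because FOXO factors act on genes of their own pathway. CAAAACA was within 100 bp of the highest bin of 12 of 91 RXRα regions (13.2%, against 6.73% of all). It was as near to the summit of 3 of 47 RARα peaks (6.38%, against 4.95%). GTAAACA was in such windows at 7 of the regions (7.69%, against 5.84%) and 2 of the peaks (4.26%, against 3.28%). In windows 500 bp from the summits of these 47 peaks, CAAAACA was in 6.38% and GTAAACA in 7.45%, so neither was more frequent at the summits. Beside all RARα peaks over 20 the shares were 7.08% and 2.51%. No such windows were searched beside the RXRα regions, so whether CAAAACA was more frequent in them than nearby was not tested. The search in RXRα regions was also added after seeing the data. In Igfbp1 the core lay at −100 bp, within the RXRα region of 81.0. In Irs1 it lay at −131 bp within the RXRα region of 49.8, and in Irs2 it was 53 bp from the RARα summit of 184. In the 250 bases before the start, Igfbp1 and Irs1 held CAAAACA, which 5.47% of all genes do. Akt1 held GTAAACA (2.74% of all genes) and a DR1 (0.152%), but no RXRα region or RARα peak over 20 was within 1 kb of its start. A match of letters is a description of the sequence and not evidence that a factor binds there.

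Of 51 other genes of the insulin and mTOR pathways, 44 had a RARα peak over 20 within 10 kb (86.3%), 35 had an RXRα region (68.6%) and 22 had a co-localized peak (43.1%). The median read ratio was 1.78 within 10 kb and 3.00 within 1 kb. RARα peaks over 20 were thus about as frequent as in the 10 genes, and RXRα regions and co-localization were less so in these lists, a difference that was not tested. The likeness in RARα holds for this threshold. At a score over 50, RARα was at 7 of 10 and 21 of 51 genes. The median strongest RARα score within 10 kb was 100 in the 10 genes and 46 in the 51. By role, RARα was at 7 of 7 genes of lipid kinases and phosphatases and 12 of 12 of the mTOR branch, and RXRα at 3 and 10 of these. All 6 genes for IGF and its binding proteins had both receptors. Among inhibitors of the pathway, 5 of 7 had RARα and 4 had RXRα, and among receptors and adaptors 7 of 10 and 8. The kinases and phosphatases acting at Akt had RARα in 6 of 7 and RXRα in 4, and of Foxo4 and Foxo6 only Foxo4 had RARα and neither had RXRα.

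The highest RARα scores of the other genes were 176 at Socs3, a suppressor of cytokine and insulin receptor signalling, and 166 at Igfbp4, which binds IGF. Igfbp4 also had the highest RXRα region (161), followed by the kinase Mtor (105), and by Prkcz, an atypical protein kinase C, and Deptor, an inhibitor of mTOR, both with 97.9. Irs4, an adaptor, and Grb10, an inhibitor of the receptor, had no RARα peak of any score and no RXRα region within 10 kb. Over its 108 kb body, however, Grb10 had 9 RXRα regions and 3 RARα peaks over 20, 1 of them co-localized, and a read ratio of 3.09 (2.77 to 3.45), while Irs4 had neither receptor there. Their read ratios within 10 kb were 0.276 (0.109 to 0.618) and 0.546 (0.341 to 0.848).

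The labelled tissue was checked at marker genes, although binding is not expression and each library is of whole liver. All 6 hepatocyte genes had a RARα peak over 20 (strongest scores 28 to 221) and an RXRα region (22.4 to 138). None of 3 Kupffer cell and 3 cholangiocyte genes had either. Of 3 endothelial genes, 3 had a RARα peak (22 to 45) and 2 an RXRα region, and of 4 stellate cell genes 1 had each. The cell type from which signal at the insulin signalling genes came was not tested.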

How the data were processed

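Chromatin of mouse liver was immunoprecipitated with antibodies to RXRα or RARα, and input was sequenced alongside. According to the labels and methods, the authors aligned single reads with Bowtie, used CASAVA 1.4, and called RARα peaks with MACS. The deposited RXRα and input signal is whole-number coverage by reads extended to 160 bp, given per 32 bp and omitting positions without reads, and amounts to 9999939 and 9999292 reads. Both totals are nearly equal, and whether the tracks were brought to a common depth was not tested. Read counts and their intervals use these deposited reads. The deposited RARα list gives a score per peak, whose reference is not stated, and a false discovery rate in percent, which the authors' caller gave and which was not used as a filter. The depth of RARα is not in its list. The signal headers name mm9, and all RARα peaks fit NCBI37, so this build was used for coordinates and sequence, although the methods name another for the alignment.

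RXRα signal was multiplied by the ratio of the track means. RXRα regions are bins at least 20 times the larger of local and mean input (0.603), joined within 200 bp. RARα peaks with a score over 20 and summits within 10 kb of a gene start were kept, and co-localization required 25% of the narrower interval. An RXRα region was placed by its midpoint. Read ratios carry exact Clopper-Pearson 95% intervals, which cover counting error only. Enrichment over a peak is mean RXRα over mean input, with input at least at the genome mean. The genes and lists were chosen with earlier results of these data known. Named genes are all 10, the 3 other pathway genes with the highest RARα score or RXRα ratio, and those with neither receptor within 10 kb. One gene that this rule names is not reported here. Motif searches in RXRα regions and with a mismatch were added after seeing the data. Computation used scipy 1.17.1 and numpy 2.4.6 under Python 3.11.15, pysam 0.24.0 for sequence and pandas 2.3.3 for tables, and region calling was tested on simulated data.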

Additional observations from a re-analysis of the deposited data

How the results depend on the processing

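The counts of insulin signalling genes with RARα, RXRα or both, near the start or over the body, ranged from 6 to 10 over 38 recomputed counts, and all stayed within 1.5 times the values reported. The reported counts were 8 to 10 of 10 genes, so none could have risen beyond 1.5 times. The matching shares of all genes varied with the setting, from 6.9% to 67.3%. The settings, not all of which apply to each count, were other score thresholds, other folds over input, mean input alone, other overlaps, other distances, nearest gene start only, any transcript start and joined peaks. Without a score threshold Akt1 had 5 RARα peaks, 2 of them co-localized. RARα was then at 10 of 10 genes, against 67.3% of all genes. At a score over 50, 7 of 10 had RARα, without Akt1, Akt2 and Igfbp1, against 24.6% of all genes. The median read ratio within 10 kb rose to 5.10 when the window was halved to 5 kb, against 1.2 for all genes. Leaving out mitochondrial signal (3.64% of input, 0.261% of RXRα) gave 3.46.

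For the other pathway genes, RARα fell to 21 of 51 at a score over 50, against 24.6% of all genes. Co-localization fell to 10 of 51 there, against 10.9%. RXRα fell to 20 of 51 at 30 times input, against 27.9% of all genes. At that setting 9 of 51 were co-localized, not far above the 14.9% of all genes. Within 1 kb RXRα was at 21 of 51, against 21.6% of all genes. Taken as shares of 51, all of these counts stayed above the shares of all genes. Peak counts of single genes moved more: 78 were beyond 1.5 times and 182 within.

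The count of exact direct repeats at RARα summits was 0 also within 50 bp and at peaks of any score. No paired analysis was possible because each antibody has 1 library, so there is no replicate to leave out. With 1 library each, spread between animals is unknown, and no setting tried here measures it. Regions with 0 or 1 input reads have imprecise ratios.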
